A study of Homo sapiens with 3 samples.

Results

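The genes described here are 38 that encode the kinetochore and the spindle assembly checkpoint, chosen by their symbols from a fixed list of members and taken from 58735 gene rows. All 38 symbols were found once each. The values come from poly(A) RNA of 3 RPE-1 libraries, made from a telomerase-immortalised line of human retinal pigment epithelium. The labels give 1 genotype and 1 state: GFP-tagged Cetn2, which marks centrioles, PLK4 under an rtTA, doxycycline-inducible promoter, a scramble control siRNA delivered by lipid transfection, and no induction of PLK4. The 3 libraries, called library 1, 2 and 3 after their replicate numbers, therefore form a single group, and no contrast between groups was made. The labels do not say whether the line is a clone or whether the libraries came from separate cultures, so the p-values below speak of these samples alone and their spread may be technical.

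A kinetochore is the protein assembly on centromeric chromatin that holds a chromosome to the spindle microtubules during cell division. Its inner layer, the constitutive centromere-associated network, sits on nucleosomes that contain the histone H3 variant CENP-A. Its outer layer is built from the KNL1, MIS12 and NDC80 complexes, and NDC80 grips the microtubule. Where a kinetochore is unattached, checkpoint kinases and MAD and BUB proteins form an inhibitor of the anaphase-promoting complex, which delays chromosome separation. Many of these genes are transcribed mainly in the later part of the cell cycle, and a repressor complex that binds the cell cycle genes homology region (CHR) is known to keep such genes low in resting cells.

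The libraries held 49279692, 60040029 and 46625774 counts, of which the 38 genes took 0.238%, 0.254% and 0.272%. Library 1 stood apart from the other two over all genes. The standard deviation of the log2 ratio of CPM, the counts scaled to a common total with TMM factors, over the 16293 tested genes was 0.355 between libraries 1 and 2, 0.351 between 1 and 3, and 0.187 between 2 and 3. As a check of the label, the pigment epithelium factors OTX2 (5.47 RPKM), MITF (3.05 RPKM) and PAX6 (1.95 RPKM) were detected. Of 6 genes of visual cycle and pigment function only BEST1 was detected, TYR, DCT and TTR had 0 counts in every library (which allows up to 3 counts, or 0.0641 CPM at most), and RPE65 and RLBP1 had 0 to 8 counts. The 4 genes fixed as features of the line, VIM, KRT8, KRT18 and TERT, were detected. Among 6 markers of other cells, HBB had 0 counts, ALB, EPCAM and CDH1 had 0 to 5, and 2 were detected, SYT1 at 13.9 RPKM and PTPRC at 0.225 RPKM. PTPRC had 2.95, 1.53 and 1.71 CPM in libraries 1, 2 and 3, highest in library 1, and whether this has a part in the difference of library 1 was not tested. The proliferation genes MKI67, TOP2A and PCNA were detected at 48.2, 92.4 and 235.8 RPKM. PLK4, which was not induced here, stood at 63.95, 64.43 and 64.15 CPM. In RNA of a whole culture, fewer cells in division and less RNA per cell cannot be told apart.

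The promoters of 6 members are shown because they carry the sequence motifs that recurred among the 38 genes, and because they include members with the highest levels and members that departed from the others between libraries. Each is the stretch of 180 bases from 150 before to 30 after the start site in RefSeq's promoter table, read on the gene's own strand, with capitals marking a CHR match, a CCAAT box or an E2F match. The letters searched, on both strands, were TTTGAA and the variant form TTCGAA for the CHR, CCAAT for the box of that name, and TTTCGCGC, TTTGGCGC, TTTCCCGC and TTTGCCGC for E2F.
CENPA: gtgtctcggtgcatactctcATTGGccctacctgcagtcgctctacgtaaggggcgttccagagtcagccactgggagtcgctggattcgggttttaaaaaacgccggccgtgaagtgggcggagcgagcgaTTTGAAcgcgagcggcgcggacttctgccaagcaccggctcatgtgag
SPC25: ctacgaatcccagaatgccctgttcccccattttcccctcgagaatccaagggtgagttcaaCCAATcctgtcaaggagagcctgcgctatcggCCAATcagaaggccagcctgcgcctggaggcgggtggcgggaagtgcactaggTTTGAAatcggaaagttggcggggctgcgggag
ZWINT: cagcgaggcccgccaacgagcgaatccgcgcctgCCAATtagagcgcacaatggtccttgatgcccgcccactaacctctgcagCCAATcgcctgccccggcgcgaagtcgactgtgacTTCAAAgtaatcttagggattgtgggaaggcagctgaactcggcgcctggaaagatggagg
BUB1: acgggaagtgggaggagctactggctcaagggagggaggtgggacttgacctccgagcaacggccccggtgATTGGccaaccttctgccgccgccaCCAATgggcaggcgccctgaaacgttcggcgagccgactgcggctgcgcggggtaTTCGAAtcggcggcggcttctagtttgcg
CENPF: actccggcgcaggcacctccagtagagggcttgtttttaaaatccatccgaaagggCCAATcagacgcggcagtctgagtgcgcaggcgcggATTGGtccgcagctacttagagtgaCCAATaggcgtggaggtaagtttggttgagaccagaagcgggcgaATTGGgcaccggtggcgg
SKA2: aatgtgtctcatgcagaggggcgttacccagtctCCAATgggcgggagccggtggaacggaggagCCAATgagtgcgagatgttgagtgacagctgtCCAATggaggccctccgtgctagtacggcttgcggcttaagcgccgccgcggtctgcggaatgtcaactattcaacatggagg

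On GRCh38.p14 these stretches lie at chr2:26785906-26786085 (CENPA, plus strand), chr2:168890401-168890580 (SPC25, minus strand), chr10:56361230-56361409 (ZWINT, minus strand), chr2:110678034-110678213 (BUB1, minus strand), chr1:214603045-214603224 (CENPF, plus strand) and chr17:59155157-59155336 (SKA2, minus strand). The whole windows, 250 bases before to 50 after the start, were searched for the 31 members with an entry. The promoters of KNL1, TTK, BUB3, CENPM, CENPL, KNTC1 and CENPH were not analysed here. A CHR match was present in 17 of 31 windows (54.84%), against 16.62% of all 27305 promoters in the table. CCAAT was also present in 17 of 31 (54.84%), against 35.7% of all promoters. Both together were present in 11 of 31 (35.48%), against 6.581%. An E2F match was rarer, in 3 of 31 windows (9.677%, CENPA, CENPU and MIS12) against 3.325% of all. None of the 3 motifs was found in 8 of 31 windows (25.81%), those of CENPB, CENPI, CENPP, CENPT, DSN1, NSL1, MAD1L1 and CENPE, against 52.48% of all promoters. Some of these calls depend on the entry used: another entry of CENPP has a CCAAT box at position -153, and another entry of SPDL1 has no match. Some windows lie inside the annotated gene, with or without a match. Those of CENPI, CENPA and NUF2 begin at 101100808, 26785806 and 163321704, and their genes start at 101098218, 26764289 and 163266576. The window of SPC25, on the minus strand, ends at 168890680, and its gene extends to 168913371. These are matches of letters in 1 window and were not measured as binding.

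The matches also had a position in common. A CHR match lay from position -40 to 49 relative to the start in 15 of the 17 members that had one (88.24%), against 27.43% of the 4539 promoters with a CHR match. A CCAAT box lay from position -130 to -30 in 13 of 17 members (76.47%), against 56.54% of the 9747 promoters with one. Both windows were chosen after the positions were seen. In the stretches printed above, SPC25, ZWINT and BUB1 have CCAAT boxes upstream and a CHR match near the start. SKA2 has CCAAT boxes and no CHR match, and the CHR match of CENPF lies 40 bases after its start, beyond the printed stretch.

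**Figure D1:**
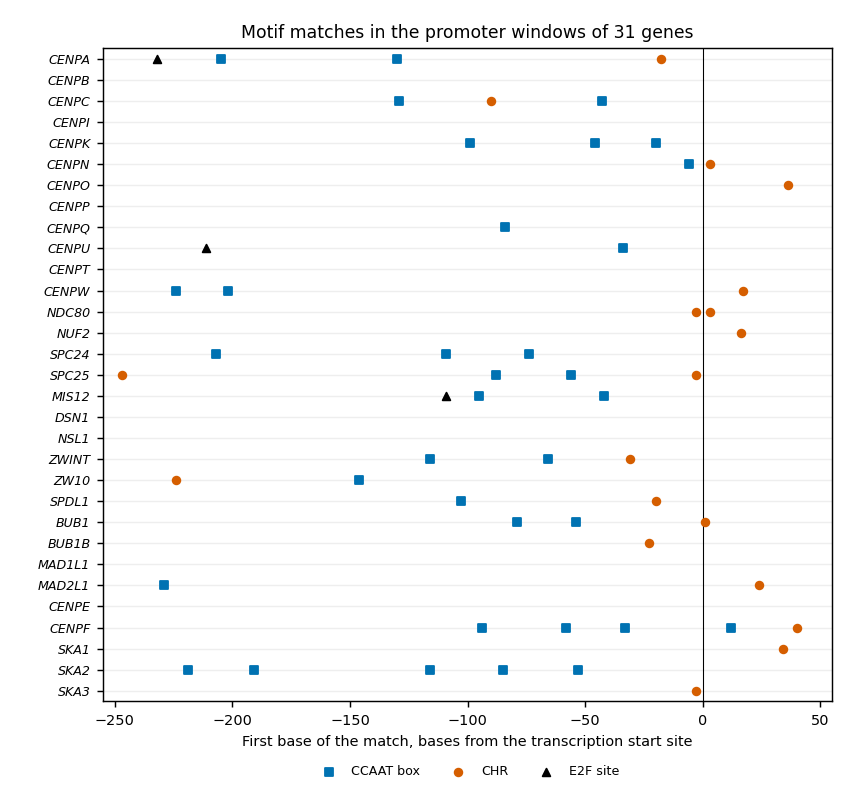
Positions of CHR, CCAAT and E2F matches in the promoter windows of 31 genes, as the first base of each match in bases from the transcription start site (x axis), with 1 row per gene. CHR matches gather near the start site and CCAAT boxes upstream of it, and 8 rows hold no match.

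All 38 genes were detected, with at least 1 CPM in each of the 3 libraries, against 57.7% of 19951 protein-coding genes. Their counts ran from 779 (CENPQ, library 1) to 19172 (BUB3, library 2). Per length, as RPKM, the CPM divided by the length of the annotated exons in kilobases, the mean level over the 3 libraries ran from 2.10 for CENPP to 51.5 for ZWINT, a span of 24.6-fold. The median of the 38 genes was 13.4 RPKM, against 6.09 RPKM for the 11508 detected protein-coding genes, which is 2.20 times as high. On the CPM scale, which takes no account of length, the medians were 45.7 and 33.0. On that scale 22 of the 38 genes stood above the coding median and 16 below it. By RPKM, 33 genes stood above the coding median and 5 below it: CENPP, CENPC, CENPL, MAD1L1 and CENPK. At least 20 RPKM was reached by 8 genes: ZWINT, CENPW, BUB3, CENPB, CENPF, SKA2, CENPU and SPC24.

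**Figure D2:**
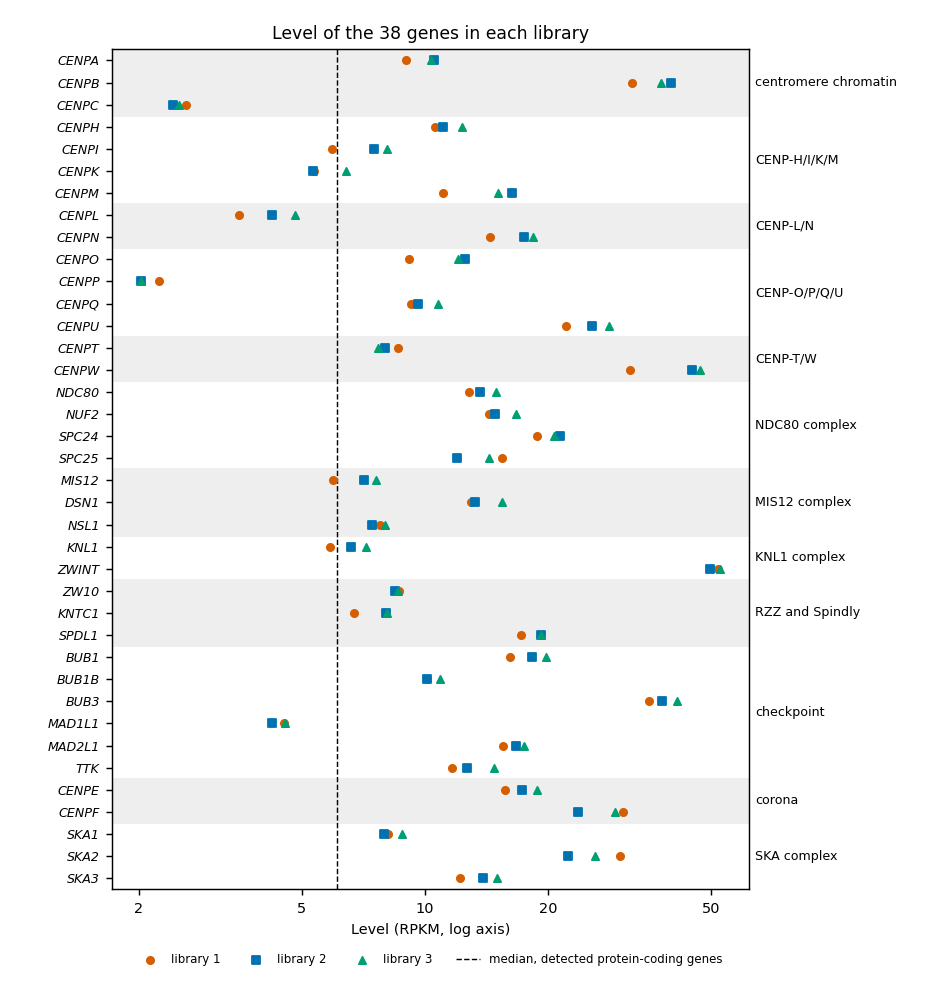
Level of each of the 38 genes in each library (RPKM, log axis), grouped by complex, with 1 symbol per library and a dashed line at the median of detected protein-coding genes. ZWINT and CENPW are at the right and CENPP and CENPC at the left, and for most genes the symbol of library 1 lies left of the other two.

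The centromere chromatin group holds CENPA, the histone variant, CENPB, which binds a sequence in alpha-satellite DNA, and CENPC, which joins CENP-A nucleosomes to the outer kinetochore. CENPB (ENSG00000125817, chromosome 20, 3783851 to 3786690 on hg38) was the highest, at 32.1, 40.0 and 37.8 RPKM in libraries 1, 2 and 3 (mean 36.7 ± 4.09 SD, n = 3). CENPC (ENSG00000145241, chromosome 4, 67468748 to 67545606) was the lowest, at 2.61, 2.42 and 2.51 RPKM (mean 2.52 ± 0.0944 SD, n = 3). The ranges of these 2 genes were far apart, and library 1 gave the lowest value for CENPB and the highest for CENPC. CENPA itself (ENSG00000115163, chromosome 2, 26764289 to 26801067) lay between, at 9.01, 10.6 and 10.4 RPKM, and shares 6.96% of its exon length with SLC35F6 on the same strand. Within each library CENPA stood below CENPB, by a mean of -1.87 on the log2 ratio scale (SD 0.0455), and above CENPC by 1.99 (SD 0.177). The second order rests on length, since CENPC has much longer exons: without length the CENPA to CENPC log2 ratio was -0.13.

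Besides CENPC, the constitutive centromere-associated network was represented by 12 genes in 4 subcomplexes. CENP-H, CENP-I, CENP-K and CENP-M form the subcomplex next to CENP-C. CENPM (chromosome 22, 41938721 to 41947164) was the highest of these, at 11.1, 16.3 and 15.1 RPKM, and CENPK (chromosome 5, 65517766 to 65563171) the lowest, at 5.35, 5.33 and 6.40 RPKM. Library 1 was well below the other two for CENPM, whereas library 3 was the high one for CENPK. CENPH (11.4 ± 0.914 RPKM, n = 3) stood 1.997 times as high as CENPK per exon length, a log2 ratio of 1.00 that was 0.06 without length, 0.18 by longest coding sequence and 0.38 by longest transcript. CENPI (7.18 ± 1.12 RPKM, n = 3) had values of 5.93, 7.51 and 8.10 RPKM. The order of CENPI below CENPM, -0.97 on the log2 scale per length, turned to 0.31 without length.

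CENP-N reads the CENP-A nucleosome and forms a dimer with CENP-L. CENPN (chromosome 16, 81006498 to 81033114) gave 14.5, 17.4 and 18.4 RPKM and CENPL (chromosome 1, 173799550 to 173824720) 3.51, 4.22 and 4.82 RPKM. Both were lowest in library 1 and highest in library 3, and CENPN was 4.02 times as high as CENPL. In the CENP-O, CENP-P, CENP-Q and CENP-U subcomplex, whose CENP-U subunit recruits the mitotic kinase PLK1, CENPU (chromosome 4, 184694618 to 184734133) was the highest at 22.1, 25.6 and 28.3 RPKM. CENPP (chromosome 9, 92325484 to 92620533) was the lowest of all 38 per exon length, at 2.24, 2.03 and 2.03 RPKM. By longest coding sequence CENPC (7.66) was below CENPP (23.8), and by CPM CENPQ (17.1) was below CENPP (20.5). CENPO, the partner of CENP-P, had 9.17, 12.6 and 12.02 RPKM, or 5.32 times as much as CENPP, and CENPQ had 9.89 ± 0.804 RPKM (n = 3). Part of the annotated exon length of CENPP (42.7%), CENPO (31.4%), CENPN (22.8%), CENPT (19.6%) and CENPU (11.7%) overlaps a gene on the opposite strand, and without a known strand setting reads there cannot be assigned to one of the 2 genes.

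CENP-T and CENP-W are histone-fold proteins that pair with each other, and CENP-T recruits NDC80 complexes directly. CENPW (ENSG00000203760, chromosome 6, 126340174 to 126348875) had the second highest level per exon length of the 38 genes, at 31.8, 45.0 and 47.1 RPKM. CENPT (ENSG00000102901, chromosome 16, 67828157 to 67847811) had 8.60, 8.01 and 7.69 RPKM. The 2 partners moved in opposite directions between the libraries, CENPW lowest and CENPT highest in library 1. CENPW was 5.03 times as high as CENPT per length, but its mRNA is short, and without length the log2 ratio of CENPT to CENPW was 0.47 in place of -2.33.

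The 4 subunits of the NDC80 complex lay within 1.47-fold of each other by RPKM and within 2.25-fold by CPM, whereas the CENP-H, CENP-I, CENP-K and CENP-M genes lay within 2.49-fold and 1.26-fold. NDC80 and NUF2 form the end that binds microtubules. NDC80 (ENSG00000080986, chromosome 18, 2571511 to 2616635), the lowest of the group, gave 12.8, 13.6 and 14.9 RPKM, and NUF2 had a mean of 15.3 ± 1.24 RPKM (n = 3). Their log2 ratio, -0.15 with an SD of 0.0202, varied less between libraries than that of any other pair tested. SPC24 and SPC25 form the opposite end, which faces the inner kinetochore. SPC24 (chromosome 19, 11131520 to 11155808), the highest of the group, gave 18.8, 21.4 and 20.7 RPKM. SPC25 (chromosome 2, 168834132 to 168913371) gave 15.5, 11.97 and 14.4 RPKM, the reverse order of libraries 1 and 2, so the log2 ratio of SPC24 to SPC25 was 0.28, 0.84 and 0.53.

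The MIS12 complex bridges the inner kinetochore to NDC80 and KNL1, and 3 of its subunits are among the 38 genes. DSN1 (chromosome 20, 36751791 to 36773818) was the highest of the 3 at 12.96, 13.3 and 15.5 RPKM, and MIS12 (chromosome 17, 5486285 to 5490814) the lowest at 5.97, 7.09 and 7.58 RPKM. NSL1 (chromosome 1, 212726153 to 212791782) stood at 7.79, 7.43 and 7.99 RPKM. The other subunit, PMF1, which is not among the 38, was lower still per exon length, at 4.28 RPKM. PMF1 shares 23.3% of its exon length with the readthrough gene PMF1-BGLAP on the same strand, and its order was not compared under other lengths. DSN1 was 2.02 times as high as MIS12 and 1.79 times as high as NSL1 per exon length. By longest coding sequence both gaps closed, to a log2 ratio of -0.02 for MIS12 to DSN1 and 0.08 for NSL1 to DSN1.

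KNL1 is the scaffold on which BUB1 and BUB3 assemble, and ZWINT is its binding partner. ZWINT (ENSG00000122952, chromosome 10, 56357228 to 56361275) had the highest level per exon length of all 38 genes, at 52.0, 49.9 and 52.6 RPKM. This rank rests on the length used. By longest coding sequence BUB3 (322.2) and MAD2L1 (154.8) stood above ZWINT (147.4), and by CPM CENPF (324.9) and BUB3 (317.0) were among those above it (122.5). KNL1 (ENSG00000137812, chromosome 15, 40594020 to 40664342) had 5.88, 6.596 and 7.196 RPKM. Per exon length this was the widest gap among the 22 pairs of partners compared, with ZWINT 7.88 times as high as KNL1 and a log2 ratio of 3.15, 2.92 and 2.87 in the 3 libraries. Without length the mean log2 ratio was 0.87. Wider gaps were those of CENPA to CENPB (-2.39), CENPU to CENPQ (2.12), ZW10 to KNTC1 (-1.74) and SKA2 to SKA1 (1.74). Also wider were the gaps of CENPO to CENPP, MAD2L1 to MAD1L1, CENPL to CENPN and BUB3 to BUB1. Those of BUB1 to BUB1B, SPC24 to SPC25 and CENPE to CENPF were wider too. ZWINT changed little between libraries, with a ratio of the highest to the lowest CPM of 1.05, whereas for KNL1 that ratio was 1.22.

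ZW10 and KNTC1, which encodes ROD, belong to the complex that brings dynein and the MAD proteins to unattached kinetochores, and SPDL1 encodes Spindly, the dynein adaptor there. SPDL1 (chromosome 5, 169583634 to 169604778) was the highest at 17.1, 19.3 and 19.2 RPKM, and KNTC1 (chromosome 12, 122527246 to 122626396) the lowest at 6.73, 8.02 and 8.07 RPKM. Both were lowest in library 1, with the other libraries close together. ZW10 (chromosome 11, 113733187 to 113773811) was the steadiest of the 38 genes, at 25.9, 25.3 and 25.7 CPM or 8.57 ± 0.0932 RPKM (n = 3). The log2 ratio of ZW10 to KNTC1 was small, 0.18, and its sign depended on length: it was -1.74 without length, -0.24 by longest coding sequence and -0.52 by longest transcript.

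Of the 6 checkpoint genes, BUB3 (ENSG00000154473, chromosome 10, 123154277 to 123170467), which carries BUB1 and BUBR1 to KNL1, was the highest. It gave 35.3, 38.02 and 41.3 RPKM in libraries 1, 2 and 3. MAD1L1 (ENSG00000002822, chromosome 7, 1815793 to 2233243), which encodes the template on which MAD2 is activated, was the lowest at 4.52, 4.24 and 4.56 RPKM. MAD2L1, which encodes MAD2, the subunit that binds CDC20, had 16.6 ± 1.013 RPKM (n = 3), 3.73 times as much as MAD1L1. The kinases BUB1 (18.1 ± 1.80 RPKM, n = 3) and TTK (13.04 ± 1.57 RPKM, n = 3), which encodes MPS1, and BUB1B, which encodes BUBR1 (10.4 ± 0.457 RPKM, n = 3), lay between. BUB3 exceeded BUB1 2.12-fold and BUB1 exceeded BUB1B 1.73-fold per exon length, in that order in 3 of 3 libraries. The size of such gaps depends on the length used. The log2 ratio of BUB3 to BUB1 was 1.08 per exon length, 0.41 by longest transcript and 3.27 by longest coding sequence. That of MAD2L1 to MAD1L1 was 1.90, 0.70 and 3.38, and that of BUB1 to BUB1B 0.79, 1.28 and 1.20. All 6 checkpoint genes were highest in library 3, and 5 of them, all but MAD1L1, were lowest in library 1. BUB1B shares 10.2% of its exon length with the readthrough gene BUB1B-PAK6, which had 0 counts.

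The fibrous corona, the outermost layer, contains CENP-E, a kinesin that moves chromosomes toward the metaphase plate, and CENP-F, a large coiled-coil protein. CENPF (ENSG00000117724, chromosome 1, 214603195 to 214664588) had 30.5, 23.7 and 29.1 RPKM and CENPE (ENSG00000138778, chromosome 4, 103105806 to 103198409) 15.7, 17.3 and 18.8 RPKM. CENPF was 1.61 times as high as CENPE, and it was lowest in library 2, where CENPE was in the middle. The SKA complex holds growing and shrinking microtubule ends together with NDC80. SKA2 (chromosome 17, 59109951 to 59155269) was its highest gene at 30.1, 22.4 and 26.05 RPKM, and SKA1 (chromosome 18, 50374995 to 50394173) its lowest at 8.11, 7.97 and 8.78 RPKM. SKA3 had 13.7 ± 1.42 RPKM (n = 3), so that SKA2 exceeded SKA1 3.14-fold and SKA3 exceeded SKA1 1.65-fold per exon length. The log2 ratio of SKA1 to SKA3 was -0.72 per exon length and -0.08 by longest coding sequence.

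Within-library ratios were taken for 22 pairs of partners in all. Every pair kept the same order in 3 of 3 libraries, and 10 pairs differed at least 2-fold in each library. With 3 libraries the two-sided exact sign-flip permutation test cannot go below 0.25, which was its p and its Benjamini-Hochberg adjusted value for each pair. The SD of the log2 ratio ran from 0.0202 for NDC80 to NUF2 up to 0.389 for CENPT to CENPW and was under 0.2 for 17 pairs. The order was the same under the 4 measures of length for 17 pairs and changed under at least 1 for CENPA to CENPC, CENPI to CENPM, CENPT to CENPW, ZW10 to KNTC1 and NSL1 to DSN1.

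**Figure D3:**
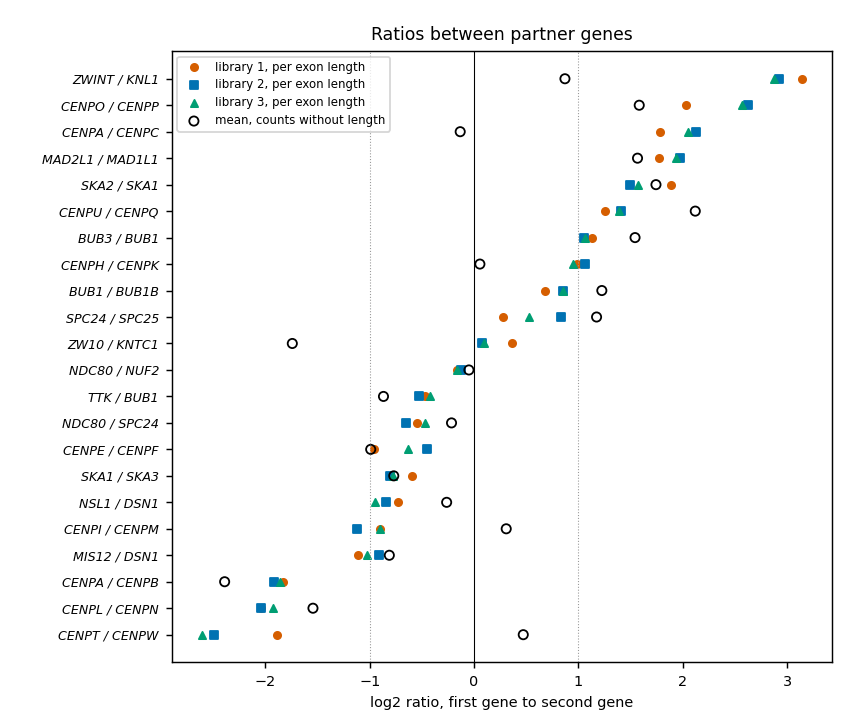
Log2 ratio of RPKM between 22 pairs of partner genes, 1 symbol per library, with 0 marking equal levels. The 3 symbols of each pair lie on the same side of 0, from ZWINT over KNL1 at 2.98 to CENPT over CENPW at -2.33.

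Library 1 gave the lowest and library 3 the highest value for most of the 38 genes. The summed CPM of the 38 genes was 2420 in library 1, 2508 in library 2 and 2710 in library 3. Library 3 gave the highest value for 25 genes (65.8%, against 27.2% of all tested genes), library 1 for 7 and library 2 for 6. Library 1 gave the lowest value for 26 genes (68.4%, against 44.8% of all tested genes and 48.4% of detected protein-coding genes), library 2 for 10 and library 3 for 2. The mean deviation of the 38 genes from their own mean, in log2(CPM + 0.5), was -0.09 in library 1, -0.00 in library 2 and 0.09 in library 3. Over all tested genes it was -0.00, 0.01 and -0.00. Library 3 also gave the highest value for MKI67, TOP2A and PCNA, whose summed CPM was 1486, 1522 and 1669. TOP2A and PCNA were lowest in library 1, but MKI67 was lowest in library 2, at 619.0, 589.8 and 641.8 CPM in libraries 1, 2 and 3. Whether the share of dividing cells took part in the pattern of the 38 genes was not tested. Since library 1 stood apart over all genes, the same was read without it: 30 of 38 genes were lower in library 2 than in library 3, against 48.6% of all tested genes.

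The 5 members with the widest spread were genes of the inner kinetochore. Other inner genes varied little, with a ratio of the highest to the lowest CPM of 1.08 for CENPC and 1.10 for CENPP. Outside the 38, the condensin gene NCAPH2 had a ratio of 1.495 and CDC20 one of 1.45. CENPW had 25.3, 35.7 and 37.4 CPM, a ratio of the highest to the lowest of 1.48. CENPM had 19.7, 28.99 and 26.9 CPM, a ratio of 1.47. For both, library 1 was low and libraries 2 and 3 lay together. CENPL followed with 17.2, 20.7 and 23.7 CPM, a ratio of 1.37. CENPO had 50.6, 69.3 and 66.3 CPM and CENPI 25.6, 32.4 and 35.0 CPM, each again a ratio of 1.37. In all 5 genes the value of library 1 was below those of the other two. At the other end, after ZW10 (1.02) and ZWINT (1.05), MAD1L1 had 32.7, 30.6 and 33.0 CPM, a ratio of 1.08. None of the 38 genes reached a ratio of 1.5, which 25.5% of all tested genes and 8.85% of detected protein-coding genes did. The median ratio of the 38 genes was 1.20, beside 1.19 for detected protein-coding genes.

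A smaller set ran against this direction. CENPF had 356.5, 277.6 and 340.5 CPM, highest in library 1 and lowest in library 2. SKA2 had 94.6, 70.5 and 82.0 CPM and SPC25 had 28.5, 22.0 and 26.4 CPM, in the same order of libraries. These 3 genes encode proteins of different complexes, the corona, SKA and NDC80. CENPT (47.7, 44.3 and 42.6 CPM) and CENPP (21.9, 19.9 and 19.9 CPM) were also highest in library 1. SGO1, the protector of centromeric cohesion, which is not a member, had 26.3, 20.3 and 23.3 CPM.

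**Figure D4:**
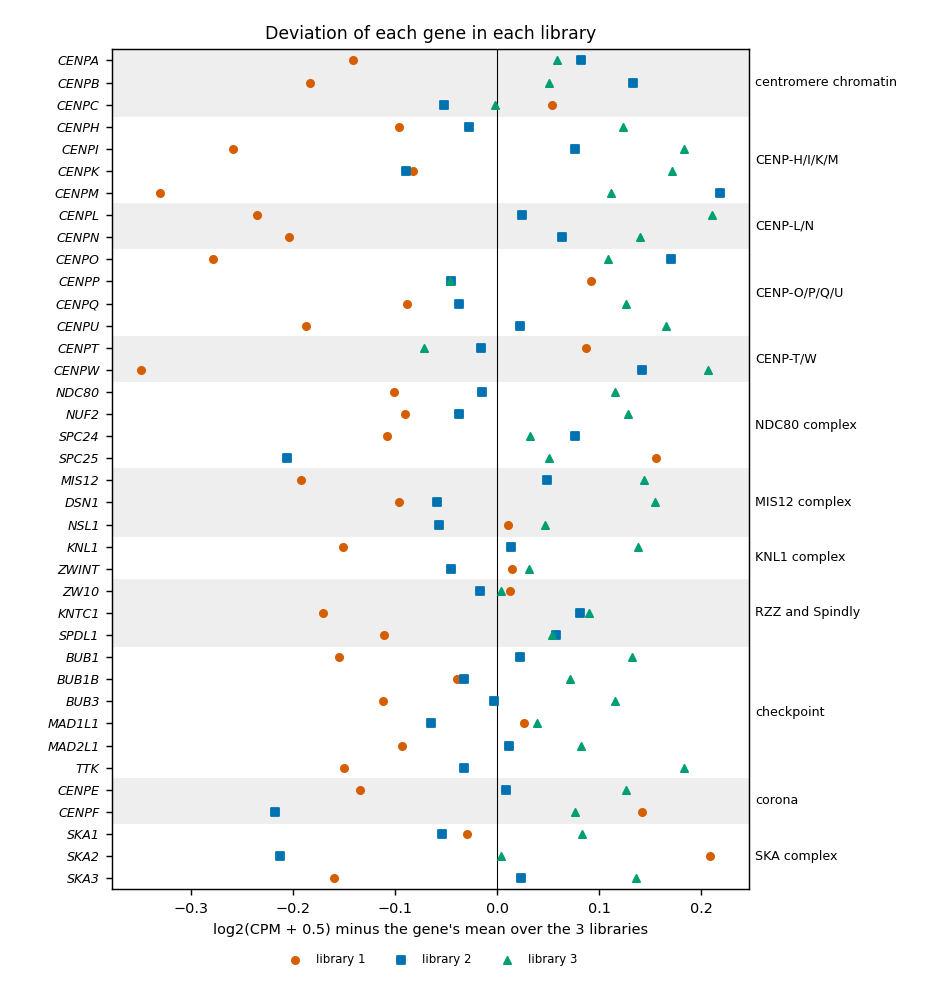
Deviation of each of the 38 genes from its own mean over the libraries, in log2(CPM + 0.5), for libraries 1, 2 and 3. Most genes are below 0 in library 1 and above 0 in library 3, and CENPF, SKA2, SPC25, CENPT and CENPP are farthest above 0 in library 1.

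The spread of each gene was set against counting noise by a chi-square test of its 3 counts, adjusted by the Benjamini-Hochberg method over all tested genes. Of the 38 genes 34 passed an adjusted p of 0.05, against 68.6% of the 16293 tested genes and 77.5% of detected protein-coding genes. The 4 that did not pass were CENPC (adjusted p = 0.234), NSL1 (0.123), ZW10 (0.865) and MAD1L1 (0.0854). Of the 38 genes, 26 (68.4%) were both called and lowest in library 1, against 33.4% of all tested genes. Another 5 of the 38 (13.2%), CENPF, SKA2, SPC25, CENPT and CENPP, were called and highest in library 1, against 27.9% of all tested genes. CENPF had the smallest adjusted p, 1.02e-129, and CENPW, with the widest ratio, had 9.91e-28. CENPP (0.0494) and SKA1 (0.0488) were just inside the threshold.

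A stricter noise model left fewer. With a coefficient of variation of 0.05 added to counting noise, 13 of 38 genes passed, against 32.6% of tested genes, a share near the background. They were 8 of the 15 inner genes (CENPB, CENPI, CENPM, CENPL, CENPN, CENPO, CENPU and CENPW) and 5 of the 23 others (SPC25, MIS12, TTK, CENPF and SKA2), and the difference between the 2 sets was not tested. With the common dispersion fitted by edgeR, 0 of 38 passed, against 4.34% of tested genes, and 0 had an unadjusted p under 0.05, against 2044 of 16293 (12.5%). That dispersion was fitted to these same 3 libraries and already holds their spread, so a gene of typical spread would not be called. The dispersion corresponds to a biological coefficient of variation of 0.135, and of 0.0603 without library 1. The counting noise test calls a given spread more readily at high counts. The members had at least 779 counts in each library, whereas tested genes needed a mean count of 10, and how far this sets the shares was not tested. Between libraries 2 and 3 alone, 22 of 38 genes passed the counting noise test, against 28.1% of tested genes. Of these 22, 21 were lower in library 2, among them TTK, CENPE, BUB3, CENPK, DSN1 and CENPF, and CENPB was the exception.

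A further 18 genes of the centromere and kinetochore outside the 38 were read the same way. All 18 were detected, with a median of 15.0 RPKM. The highest was CDC20 at 37.9 RPKM, the activator of the anaphase-promoting complex that the checkpoint holds. The lowest was CENPS at 0.957 RPKM, a gene whose exons overlap the readthrough gene CENPS-CORT. The counting noise test called 15 of the 18 (83.3%), of which 11 were lowest and 2 highest in library 1. It called 68.6% of all tested genes and 77.5% of detected protein-coding genes. Of all tested genes 33.4% were called and lowest in library 1, and 27.9% called and highest there. Beside the 18, all 8 condensin subunits were detected (median 17.2 RPKM), 7 were called (87.5%) and 4 of those were lowest in library 1. All 16 genes of the anaphase-promoting complex and its activators were detected (median 11.5 RPKM). Of these 13 were called (81.25%), 7 of them lowest and 5 highest in library 1. All 13 cohesin genes were detected (median 8.84 RPKM) and called, 3 lowest and 5 highest in library 1. The mean deviation in library 1, in log2(CPM + 0.5), was -0.09 for the 38 genes, -0.11 for the further 18, -0.10 for condensin, -0.06 for the anaphase-promoting complex and -0.01 for cohesin, and differences between these lists were not tested.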

How the data were processed

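Poly(A) RNA was sequenced from 3 libraries of 1 group. The authors deposited whole-number counts of reads per gene, not normalised. Tools in the submitters' processing notes are STAR 2.5.2a, cutadapt 1.16 and featureCounts 1.6.2, with the hg38 build. What annotation and strand setting served the counting, and how reads with several alignments were treated, was not given in the sources used here. A further 6 columns of counts matched no sample given and were not used. All 58735 gene identifiers matched GENCODE release 29 (99.5% of symbols equal), which gave positions and exon lengths on hg38.

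CPM used TMM factors from edgeR 4.0.16 (R 4.3.3), and RPKM divided CPM by the union of a gene's exons. The 16293 genes whose mean count reached 10 entered the chi-square test (2 degrees of freedom, Benjamini-Hochberg adjusted over all of them, threshold 0.05), which was tested on simulated data. Detection needed 1 CPM in every library. Ratios of partners had 0.5 count added and were tested by exact sign-flip permutation, two-sided. DESeq2 1.42.0 gave alternative size factors. Other scalings, filters, noise models, lengths and pseudocounts, and each library left out, were tried. Where a gene had 0 counts, the limit of 3 counts came to 0.0618, 0.0494 and 0.0641 CPM in the 3 libraries, for counting error only. The totals of 49279692, 60040029 and 46625774 counts give every member at least 779 counts in each library.

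The members and lists were chosen with earlier results of these data known. By rule all 38 members are named, with values per library for the highest and lowest of each group of a complex, the 5 widest and the 3 narrowest. Members that were called and highest in library 1, other members given per library, SGO1, and the names in subsets were added after their values were seen. Promoter sequences are RefSeq's on GRCh38.p14, and 31 of 38 members matched. For 4 members with several entries the first was used. Of the 31 windows, 28 were found on the forward strand of GENCODE transcripts and 0 on the reverse. The 8 pseudogene or readthrough rows that carry a member's symbol held at most 3 counts in a library.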

Additional observations from a re-analysis of the deposited data

How the results depend on the processing

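The number of the 38 genes with spread beyond counting noise, 34, was 34 with DESeq2 size factors and with a mean count of at least 50, and 32 with total counts or with no low-count filter. It was 13 with an extra coefficient of variation of 0.05 and 0 with the common dispersion. Leaving out 1 library gave 22 to 30: 22 without library 1, 30 without library 2 and 24 without library 3. Fewer libraries and a wider noise model lower this number by their construction. The median level, 13.4 RPKM, was 45.7 without length (CPM), 34.6 by longest coding sequence and 15.8 by longest transcript, so levels between genes depend on the length used. Ratios turned for ZW10 to KNTC1 (-1.74 without length, -0.239 by longest coding sequence, -0.522 by longest transcript), CENPA to CENPC (-0.133), CENPI to CENPM (0.308) and CENPT to CENPW (0.471) without length, and for NSL1 to DSN1 (0.0781) by longest coding sequence. All 38 genes were detected under the 5 alternatives tried. With total counts, library 1 was lowest for 29 of 38 genes and highest for 6, beside 26 and 7 with TMM. The shares of all tested genes moved the same way, to 48.55% lowest and 36.01% highest, beside 44.8% and 39.58% with TMM. No paired analysis was possible because the libraries form 1 group.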
